A study of Drosophila melanogaster with 24 samples.

Results

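A set of 60 transcripts was more abundant in female than in male whole bodies by at least 2 log2 (4-fold) in both fly strains of this experiment. They were chosen from the 13873 transcripts with a value on all 24 arrays, using the mean of 3 arrays in each whole body group, and make up 0.432% of them. The strains were lol, a mutant line, and w1118, the control, both Drosophila melanogaster. The 8 groups of 3 arrays were lol female bodies, w1118 female bodies, lol male bodies, w1118 male bodies, and heads of the same strains and sexes. By its title, the study concerned a long noncoding RNA named Lobe-less and the development of the mushroom body, a paired centre of the insect brain. Nothing beyond the name lol is given about its allele or genetic background in the sources used here. The flies grew at 23 °C and were collected as adults of day 2. Every RNA sample pooled 100 bodies or 100 heads, and replicates came from separate cultures, per the labels. Heads were parted from the frozen carcasses with a sieve. Hybridisation was to a one-colour NimbleGen array with 8 probes for each of 16637 designed transcripts.

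Much of the RNA that separates the sexes in a fly's body comes from the gonads. In the ovary, nurse cells load the oocyte with maternal RNA, and the follicle cells around it make the vitelline membrane and chorion of the eggshell in a set order of stages. Yolk proteins are made in the female fat body, which also lines the head, and in follicle cells. A whole body sample mixes all of these tissues, so fewer cells of a type and less RNA per cell cannot be told apart. The transcripts are known here by FlyBase transcript ID alone: 0 of the 60 could be matched to a gene in the reference table, and neither could any symbol of 8 marker lists (eggshell, yolk, germline, female tract, male reproductive, photoreceptor and neuron, fat body, muscle). No role is therefore given to a single transcript, and the tissue labels were not checked against markers.

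Values are on a log2 scale that ran from 6.61 to 15.92, with array medians between 12.10 and 12.25. Across all transcripts, replicate arrays correlated at 0.912 to 0.991. A set of 214 transcripts gave a measure of body transcripts on head arrays. They were at least 2 log2 higher in w1118 female bodies than in w1118 female heads (limma, adjusted p under 0.05). Between the sexes they were within 0.5 log2 in w1118 bodies. This choice read the w1118 female head arrays, so low values there follow from it. In lol bodies the median of the set was 13.75 to 13.85 in females and 13.06 to 13.26 in males. The set was thus sex-neutral by choice in w1118 alone. Its median lay between 10.37 and 10.93 on 4 head arrays (lol female replicate 1, lol male replicate 1 and w1118 male replicates 1 and 2) and between 8.68 and 9.11 on the other 8. Head comparisons are also given without these 4 arrays, which leaves a lone array of w1118 male heads, whose spread is taken from the other groups.

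The values that chose the set are given as a description. The female minus male body difference of the 60 ranged from 2.00 to 7.47 log2 in lol, with a median of 2.72, and from 2.00 to 6.87 in w1118, with a median of 3.23. It was larger in lol for 17 transcripts and larger in w1118 for 43. In both strains it reached 3 log2 for 21 transcripts and 4 log2 for 7. The last transcript inside the limit stood at 2.00 log2 in lol and 2.27 in w1118, and the first one outside stood at 1.98 in lol and 4.48 in w1118. With any 1 body array left out the rule chose between 53 and 70 transcripts, of which 52 to 60 were among the 60.

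**Figure D1:**
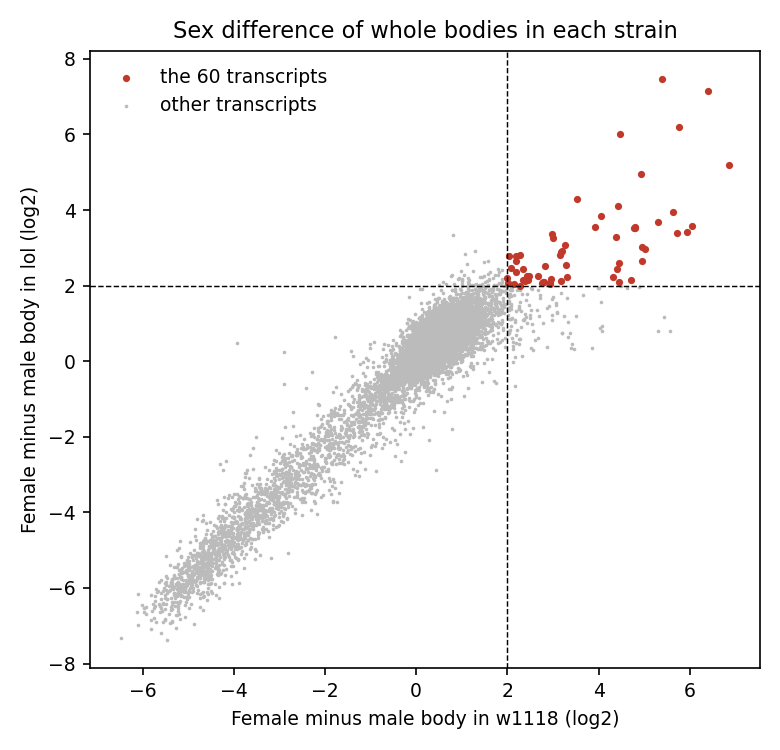
Female minus male whole body difference in log2 for each of 13873 transcripts, in lol (vertical) and w1118 (horizontal), with the 60 chosen transcripts in red and the limits of 2 log2 dashed. The 60 reach 7.47 log2 in lol and 6.87 in w1118, and their horizontal spread is wide close to the lower limit of lol.

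Most of the 60 stood near the bottom of the scale everywhere except in female bodies. The median level of the set was 11.31, 11.58 and 11.60 log2 on the lol female body arrays and 12.44, 11.86 and 12.76 on those of w1118. On male body arrays it was 8.44 to 8.48 in lol and 8.49 to 8.61 in w1118. Head arrays lay between these, at 9.14 to 9.35 in lol females, 9.21 to 9.36 in w1118 females, 8.64 to 9.16 in lol males and 8.71 to 9.13 in w1118 males. By group mean, 55 of the 60 were in the lowest 25% of all transcripts in lol male bodies and 53 in w1118 male bodies. In female bodies the count was 2 in lol and 1 in w1118. In female heads it was 37 in lol and 36 in w1118, so most of the set was low there too.

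**Figure D2:**
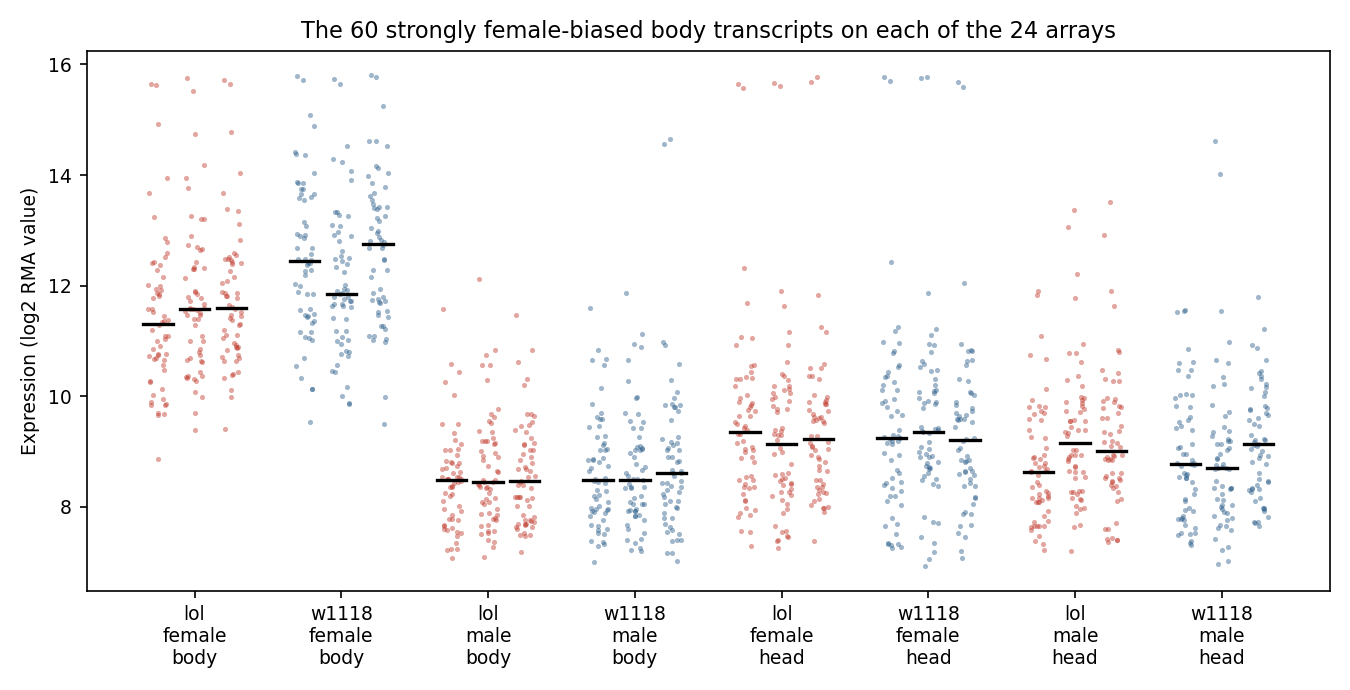
Expression in log2 RMA units (vertical) of the 60 transcripts on each of the 24 arrays (horizontal, 3 columns of points per group in the order of replicates 1 to 3; red, lol; blue, w1118), with a black bar at the median of each array. Female body medians run from 11.31 to 12.76 and male body medians from 8.44 to 8.61, and a pair of transcripts stays near 15.7 in all female groups.

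Among the 60, the difference between the sexes was largest, by the smaller value of the 2 strains, for FBtr0077804 and FBtr0080350. FBtr0077804 stood at 14.92, 14.74 and 14.77 in lol female bodies, against 7.85, 7.40 and 7.69 in lol male bodies. In w1118 it stood at 14.37, 14.24 and 14.12 in female bodies, against 7.53, 7.35 and 8.66 in male bodies. On the array scale females were at least 143-fold higher in lol and at least 84.3-fold higher in w1118, with no overlap between the sexes. The folds are lower bounds, since the male bodies stood at percentiles 3.7 (lol) and 5.8 (w1118) of all transcripts and were not shown to be above background. Its heads were low in either sex, with means between 7.26 and 8.28. FBtr0080350 was at least 73.0-fold higher in female than in male bodies of lol and at least 54.3-fold higher in w1118, with male bodies again near the bottom (percentiles 5.7 and 6.4), and its head means lay between 8.78 and 9.69.

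The 60 had similar profiles over the 8 group means, which follows in part from the way they were chosen. The median correlation of the 1770 pairs of transcripts was 0.915, and 1363 pairs were above 0.8. FBtr0082279 was closest to the median profile of the set (r = 0.999 over 8 group means), followed by FBtr0078090 (r = 0.997). FBtr0082279 averaged 11.67 in lol female bodies, 12.12 in w1118 female bodies, 9.42 in lol male bodies and 9.46 in w1118 male bodies, with heads between 9.75 and 10.03. The least similar transcript had r = 0.547, and the pair near the top of the scale had r = 0.694 and 0.683.

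Female heads stood below female bodies by a median of 1.96 log2 in lol and 2.84 in w1118. Since the choice required high female bodies, this is a description. In 28 of the 60 the head mean was at least 2 log2 below the body mean in both strains. In 6 it was within 1 log2 of the body in both strains. Of these 6, FBtr0071419 and FBtr0071424 stood at the top of the scale, and the other 4 had female head means between 10.01 and 12.11. Male heads differed from male bodies by a median of 0.44 log2 in lol and 0.27 in w1118.

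Whether the set depends on the mutant strain was asked first in female bodies, where it is most abundant. Of the 60 transcripts, 0 rose, 22 fell and 38 did not pass in lol female bodies relative to w1118 (limma, adjusted p under 0.05 over all 13873 transcripts). Over all transcripts 2.57% rose and 2.3% fell. The median difference was -0.60 log2 for the 60 and 0.01 for all transcripts, and 52 of the 60 lay below 0 (49.1% of all transcripts). The 3 lol arrays were all below the 3 w1118 arrays for 34 of the 60 (11.7% of all transcripts) and all above them for 6 (13.8% of all). The rule read the same body arrays, though in the contrast of the sexes and with 1 limit for both strains, so these counts are not independent of the choice. Without w1118 female body replicate 1, or without replicate 3, 13 fell. With the 6 compared arrays alone, 13 fell and 1 rose. The counts from these smaller fits are given without the share of all transcripts called in them.

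Falls among the 22 ranged from 0.74 to 2.58 log2, and reached 1 log2 for 20 and 2 log2 for 8. FBtr0073573 had the largest fall. It stood at 8.88, 9.69 and 10.11 in lol female bodies, against 12.48, 10.94 and 12.99 in w1118 female bodies, a difference of -2.58 ± 0.45 log2 (SE; 5.97-fold lower; adjusted p = 0.00134, limma). The groups did not overlap, but the w1118 arrays spread over more than 2 log2, and the call was lost with the 6 compared arrays alone (adjusted p = 0.0651). In male bodies the same transcript averaged 7.42 in lol and 7.43 in w1118, at the bottom of the scale. FBtr0070749 fell as steeply from a much higher level. It stood at 12.15, 12.65 and 12.55 in lol female bodies, against 15.08, 14.52 and 15.24 in w1118 female bodies, a difference of -2.49 ± 0.46 log2 (SE; 5.63-fold lower; adjusted p = 0.00217, limma). Its female bodies did not overlap between the strains, and its male bodies averaged 8.88 in lol and 8.91 in w1118.

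The w1118 female bodies also differed among themselves over this set. Of the 60 transcripts, 44 were lowest on w1118 replicate 2, against 31.9% of all transcripts, and 38 were highest on replicate 3, against 41% of all. In lol female bodies 45 of the 60 were lowest on replicate 1, against 42.9% of all. The median SD of the 60 between replicates was 0.26 log2 in lol female bodies and 0.36 in w1118 female bodies, where that of all transcripts was 0.16 and 0.18. For the 22 that fell, replicate 2 was the lowest w1118 array in 22 of 22. The median SD of these 22 was 0.30 log2 in lol female bodies and 0.64 in w1118 female bodies, while the fit shared 1 spread per transcript over the 8 groups. Their median was 10.85, 11.47 and 11.47 on the lol female bodies and 12.92, 12.20 and 13.11 on the w1118 female bodies. The other 38 stood at 11.44, 11.66 and 11.81 in lol and at 11.85, 11.73 and 11.83 in w1118. The part of this difference between replicates in the strain difference was not tested.

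**Figure D3:**
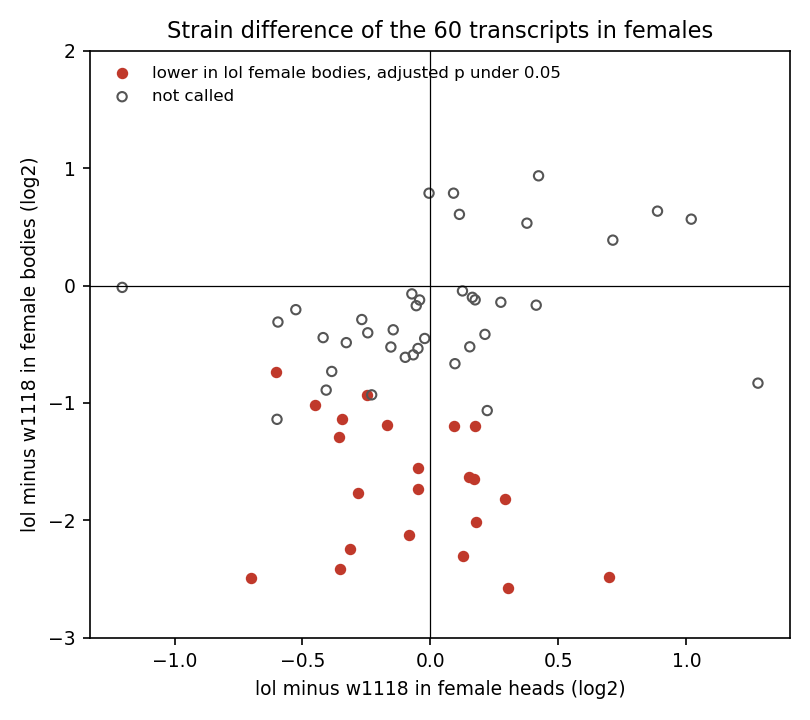
Difference of lol minus w1118 in log2 for the 60 transcripts, in female heads (horizontal) and in female bodies (vertical); filled points are the 22 that fell in lol female bodies. The filled points lie between -2.58 and -0.74 vertically and scatter on both sides of 0 horizontally.

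In male bodies, where the set is low, the strain difference had a median of -0.07 log2 for the 60 and -0.02 for all transcripts. Of the 60, 1 rose, 2 fell and 57 did not pass (limma), against 2.89% of all transcripts that rose and 5.76% that fell. The rule read these arrays too and required low male levels in both strains, so the counts are not independent of the choice. With array weights 5 rose and 9 fell, counts given without the share of all transcripts called in that fit. FBtr0071991 stood at 9.14, 9.76 and 9.65 in lol male bodies, against 7.97, 8.36 and 8.61 in w1118 male bodies, a difference of 1.20 ± 0.30 log2 (SE, adjusted p = 0.0184). Its call was lost without w1118 male body replicate 1 or 2, without lol male body replicate 2 or 3, and with quantile normalization again (adjusted p between 0.0564 and 0.126). In female bodies it was at 12.59, 12.32 and 12.42 in lol, against 11.36, 11.62 and 11.55 in w1118, with no overlap and an adjusted p of 0.0925. FBtr0084038 fell in bodies of both sexes. It stood at 8.94, 9.13 and 9.24 in lol male bodies, against 10.56, 10.89 and 10.07 in w1118 male bodies, a difference of -1.40 ± 0.24 log2 (SE, adjusted p = 0.000765). In female bodies its difference was -1.01 ± 0.24 log2 (SE, adjusted p = 0.0151), again with no overlap. FBtr0078455 stood at 9.03, 9.19 and 8.68 in lol male bodies, against 9.86, 10.27 and 9.84 in w1118 male bodies, a difference of -1.02 ± 0.23 log2 (SE, adjusted p = 0.00789, and 0.0536 without w1118 male body replicate 2).

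Head arrays took no part in the choice of the set. In lol female heads, 0 of the 60 rose and 0 fell relative to w1118 female heads (limma), while 1.9% of all transcripts rose and 1.72% fell. At an unadjusted p under 0.05, 3 of the 60 were higher (6.51% of all transcripts) and 3 lower (5.89% of all). The median difference was -0.05 log2 for the 60 and -0.07 without the 4 head arrays with raised body transcripts. For the 22 transcripts that fell in female bodies it was also -0.07 in female heads, where their median level was 8.75 in lol and 9.04 in w1118, low on the scale. In male heads, 1 of the 60 rose and 0 fell (2.37% and 2.31% of all transcripts). FBtr0077752 stood at 11.09, 12.22 and 11.63 in lol male heads, against 10.37, 9.45 and 10.45 in w1118 male heads, a difference of 1.56 ± 0.28 log2 (SE, adjusted p = 0.00195, and 0.24 with the 6 compared arrays alone). Without the 4 head arrays its difference was 1.47 log2 (adjusted p = 0.0316). Every lol array of this transcript was above every w1118 array of the same sex and tissue in the other 3 comparisons too, though none of those passed (differences of 0.63 to 0.89 log2).

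The difference between tissues was tested in females as an interaction of strain and tissue, a test added after the values had been seen. Its body part comes from arrays that the rule read, so its calls are not independent of the choice. Of the 60, 6 had a more positive strain difference in heads than in bodies and 0 a more negative one (limma, adjusted p between 0.0176 and 0.0464), against 0.231% and 0.144% of all transcripts. All 6 were among the 22 that fell in lol female bodies. The strain difference of the 6 ran from -2.48 to -1.63 log2 in bodies and from -0.35 to 0.70 in heads. In female heads all 6 were low in both strains, at percentiles 1.8 to 24.6 of all transcripts. A fall had little room to show there, and the part of this in the interaction was not tested. FBtr0070892 differed most between the tissues. It stood at 10.28, 11.47 and 11.21 in lol female bodies, against 13.88, 12.91 and 13.62 in w1118 female bodies, and at 9.15, 10.19 and 9.27 in lol female heads, against 8.41, 9.08 and 9.04 in w1118 female heads. The strains did not overlap in either tissue, and stood in opposite order. For FBtr0083508 the difference was -2.30 log2 in female bodies and 0.13 in female heads, where the strains overlapped. Its interaction was 2.43 ± 0.46 log2 (SE, adjusted p = 0.0249, and 0.129 with the compared groups alone). With arrays left out, calls were counted for the 60 alone, without the share of all transcripts called in the same fit. Such counts do not set the 60 apart. The count of 6 became 0 without w1118 female body replicate 1 or 3, lol female body replicate 1 or w1118 female head replicate 1, and 12 without w1118 female body replicate 2. It was 3 without the 4 head arrays and 2 to 4 without any other array compared.

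The female bias of the set was then tested in heads, whose arrays the choice did not use. Of the 60, 47 were higher in female than male heads of lol (54.5% of all transcripts) and 53 in w1118 (57.2% of all). In either strain 0 of the 60 passed (limma), where 0.0577% of all transcripts passed as higher in lol females and 0.0288% as lower. In w1118 these shares were 0.0432% each. With so few calls among all transcripts, 0 of the 60 does not tell the set from the rest. At an unadjusted p under 0.05, 5 of the 60 were higher in lol females (1.98% of all transcripts) and 0 lower (0.894% of all). In w1118 females 15 were higher (4.27% of all) and 0 lower (7.3% of all). The median female minus male difference was 0.24 log2 in lol and 0.34 in w1118, against 0.02 and 0.04 for all transcripts. On the 3 male head arrays with raised body transcripts the set had medians of 8.64, 8.71 and 8.77, while the remaining 3 male head arrays had medians of 9.02 to 9.16. Without the 4 arrays the median difference was 0.10 in lol and 0.12 in w1118. It was the same to 2 decimals without the 3 male arrays alone, and 0.19 in lol without lol female head replicate 1 alone, alternatives chosen after seeing the data. The part of the raised body transcripts in the sex difference was not tested. Without the 4 arrays, 35 of the 60 were higher in female than male heads of lol and 36 in w1118. The median difference over all transcripts was then -0.001 log2 in lol and -0.002 in w1118. The share of all transcripts that were higher was not counted there, so the 35 and 36 do not set the 60 apart. The sex difference of heads did not pass as different between lol and w1118 for any of the 60 (limma, 0 of 13873 transcripts passed, with 1 of the 60 higher and 1 lower at an unadjusted p under 0.05, against 1.19% and 0.62% of all).

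**Figure D4:**
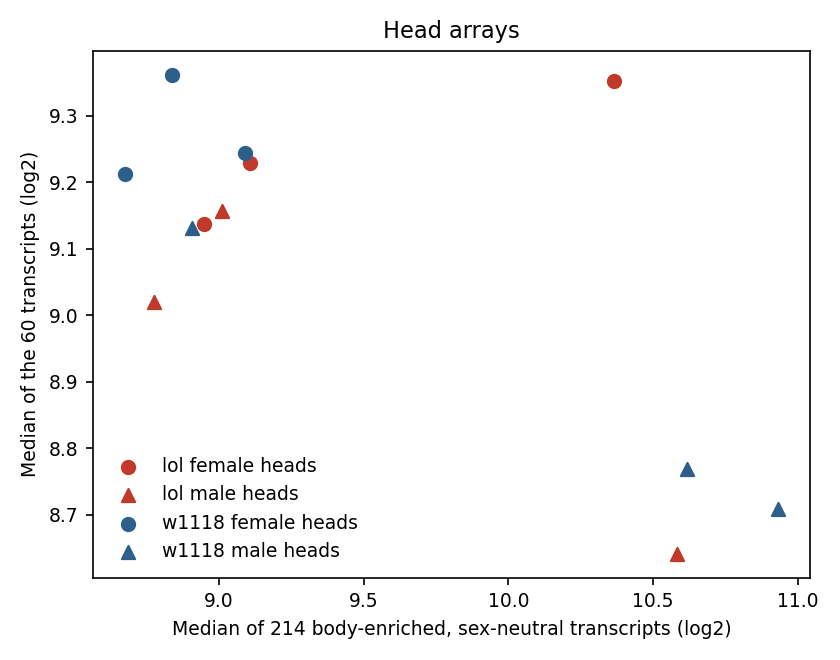
Median of the 60 transcripts (vertical, log2) against the median of 214 transcripts (horizontal, log2) on the 12 head arrays. The 214 were body-enriched and sex-neutral in w1118, chosen in part on the w1118 female head arrays. Circles are females, triangles are males, red is lol and blue is w1118. The 3 male arrays above 10.5 on the horizontal axis have the lowest medians of the 60, between 8.64 and 8.77.

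With the strains averaged, an alternative chosen after the values had been seen, 1 of the 60 passed as higher in female heads and 0 as lower (limma), against 0.252% and 0.13% of all transcripts. This was FBtr0073928, named here after its values were seen. It stood at 11.07, 9.30 and 10.02 in lol female heads, against 8.80, 8.94 and 8.85 in lol male heads. In w1118 it stood at 10.44, 10.59 and 10.95 in female heads, against 9.47, 8.71 and 9.22 in male heads. The sexes did not overlap within either strain, and the averaged difference was 1.40 ± 0.22 log2 (SE, adjusted p = 0.00335, and 0.146 with head arrays alone in the fit). Without the 4 head arrays it was 1.11 log2. In w1118 alone the difference was 1.53 log2 (adjusted p = 0.0546, and 0.0299 with the replicate number as a block). In bodies, which chose it, the female minus male difference was 4.95 log2 in lol and 4.92 in w1118.

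FBtr0071419 and FBtr0071424, also named after their values were seen, stood apart from the other 58 in heads. On the 6 female head arrays FBtr0071419 lay between 15.65 and 15.77 and FBtr0071424 between 15.57 and 15.77, close to the highest value on any array. No other transcript of the 60 had a female head mean above 12.11. FBtr0071419 stood at 9.26, 13.06 and 12.91 in lol male heads and at 10.47, 14.62 and 10.15 in w1118 male heads. FBtr0071424 stood at 11.82, 13.37 and 13.52 in lol male heads and at 11.54, 14.01 and 10.88 in w1118 male heads. Male heads thus varied within a strain, on the same arrays for both transcripts, and none reached a female head. The SD of male heads was 2.15 log2 in lol and 2.49 in w1118 for FBtr0071419, and 0.94 and 1.65 for FBtr0071424. The female minus male head difference of FBtr0071419 was 3.92 ± 1.33 log2 in lol and 3.99 ± 1.33 in w1118 (SE), and neither passed (adjusted p = 1 and 0.257, limma). For FBtr0071424 it was 2.74 ± 0.99 in lol and 3.55 ± 0.99 in w1118 (SE, adjusted p = 1 and 0.225). With the strains averaged their adjusted p was 0.087 and 0.058, and both passed without w1118 male head replicate 2 (0.0276 for each) or without replicate 3 (0.0305 and 0.0191). Without the 4 head arrays the averaged difference was 4.13 log2 for FBtr0071419 and 3.53 for FBtr0071424 (adjusted p = 0.293 and 0.288).

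The same pair varied in male bodies. FBtr0071419 stood at 7.66, 9.01 and 8.02 in lol male bodies and at 8.70, 7.92 and 14.56 in w1118 male bodies. FBtr0071424 stood at 9.04, 10.74 and 8.96 in lol male bodies and at 9.63, 9.42 and 14.65 in w1118 male bodies. On w1118 male body replicate 3 they were thus 6.25 and 5.12 log2 above the mean of the other replicates, and of all 13873 transcripts they were the only 2 that were more than 3 log2 above it. FBtr0077804 followed among the 60 at 1.23 log2. The median over the 60 was -0.01 log2, as was the median over all transcripts. Without this array the female minus male body difference in w1118 was 7.47 log2 for FBtr0071419 and 6.19 for FBtr0071424, against 5.39 and 4.48 with it.

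**Figure D5:**
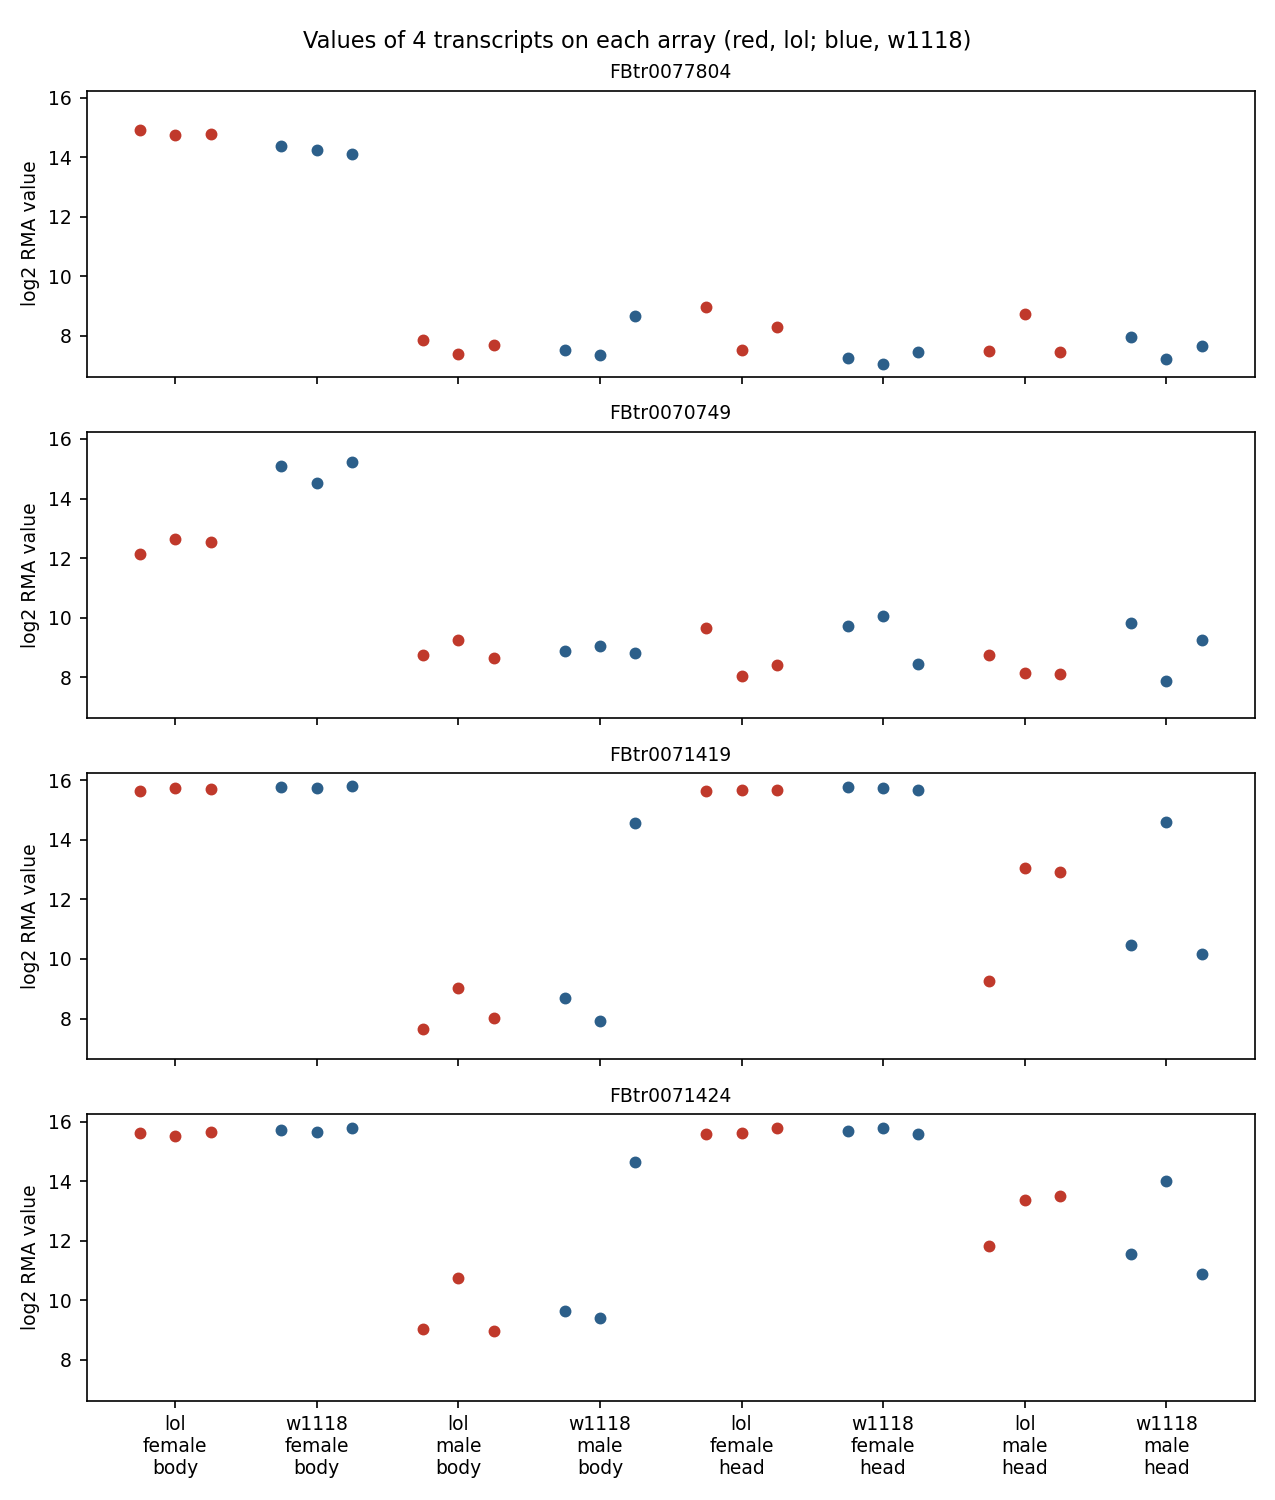
Log2 RMA values (vertical) of FBtr0077804, FBtr0070749, FBtr0071419 and FBtr0071424 on each of the 24 arrays (horizontal, 3 points per group in the order of replicates 1 to 3; red, lol; blue, w1118). FBtr0071419 and FBtr0071424 stand near 15.7 in all female groups and reach 14.56 and 14.65 on w1118 male body replicate 3, while the female body level of FBtr0070749 is lower in lol.

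Of the transcripts that met the limit in a single strain, 57 did so in lol and 120 in w1118. In lol female bodies 0 of the 120 rose and 54 fell (limma). Of the 57, 9 rose and 4 fell, against 2.57% and 2.3% of all transcripts. The strain difference was more positive in female heads than bodies for 9 of the 120 and 1 of the 57 (0.231% of all). It was more negative for 0 and 3 (0.144% of all). The rules read these body arrays, so the counts are not independent of the choice. Head arrays of these sets, which no rule used, are set beside those of the 60 here without a test of the difference. At an unadjusted p under 0.05, females were higher than males in lol heads for 5 of the 60, 15 of the 57 and 1 of the 120 (8.33%, 26.3% and 0.833%, against 1.98% of all transcripts). In w1118 heads the counts were 15 of the 60, 14 of the 57 and 10 of the 120 (25%, 24.6% and 8.33%, against 4.27% of all). Without the 4 head arrays they were 2, 14 and 1 in lol heads (1.74% of all) and 5, 8 and 2 in w1118 heads (1.93% of all). The median female minus male difference in lol heads was 0.24 log2 for the 60, 0.31 for the 57 and 0.12 for the 120. In w1118 heads it was 0.34 log2 for the 60, 0.25 for the 57 and 0.30 for the 120. Without the 4 arrays the medians were 0.10, 0.22 and -0.03 in lol heads and 0.12, 0.23 and 0.04 in w1118 heads, for the 60, the 57 and the 120 in turn. Strain differences of female heads had medians of -0.05 log2 for the 60, -0.13 for the 57 and -0.14 for the 120, and of -0.07, -0.16 and -0.16 without the 4 arrays.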

How the data were processed

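Values are intensities summarised per transcript by the authors with RMA, per the submitters' processing notes. RMA (robust multi-array average) subtracts background, brings arrays to a common distribution and combines probes. Neither its version nor the set of arrays handled jointly was stated. The log2 scale was inferred from the range of the deposited values. Of 15595 transcripts, 1722 lacked values throughout and were not used. Arrays have no count depth, and their number limits the precision.

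In R 4.3.3, limma 3.58.1 was fitted to all 24 arrays and all 13873 transcripts with 1 mean per group, and p-values were adjusted by Benjamini-Hochberg over all of them within a comparison. The fit was tested on simulated data with 200 changed transcripts and independent noise of equal SD in all groups. That test does not cover spread that differs between groups or shifts shared by the transcripts of an array. Errors are model SEs or SDs. The members, lists and tests were chosen with earlier results of these data known. Transcripts were named by rule: the 2 with the largest sex difference, the 2 closest to the median profile, and up to 2 per direction and comparison among called ones (without overlap of the groups, except in the interaction). FBtr0071419, FBtr0071424 and FBtr0084913 fall outside it.

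Replicate numbers were checked for pairing by correlating deviations from group means across transcripts. All 3 correlations exceeded 0.1 in 2 of 6 comparisons (strains in male bodies, sexes in w1118 heads), although the labels name separate cultures. Alternatives tried were a robust prior with an intensity trend, fewer arrays in the fit, other normalizations, a filter on low values, array weights, the replicate block and leaving out arrays.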

Additional observations from a re-analysis of the deposited data

Results flagged for a closer look

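The strain difference of 6 of the 60 transcripts was more positive in female heads than in female bodies by a test of the interaction, and that of 0 was more negative (limma; 0.231% and 0.144% of all transcripts). The rule that chose the 60 read the female body arrays of this test, so these calls are not independent of the choice. Female heads of all 6 were low in both strains (percentiles 1.8 to 24.6 of all transcripts), so a fall had little room to show there. For 2 of the 60 (3.33%), every lol array was below every w1118 array in female bodies and above every one in female heads. This order held for 0.231% of all transcripts. Both of the 2 were among the 6, which the interaction picked for such a difference. FBtr0070892 differed by -2.48 log2 in bodies and 0.70 in heads (interaction 3.18 ± 0.57, SE, adjusted p = 0.0176, and 0.0587 to 0.071 without w1118 female body replicate 1 or 3, lol female body replicate 1, w1118 female head replicate 1 or lol female head replicate 2). FBtr0084913 differed by -1.82 log2 in bodies and 0.29 in heads (interaction 2.11 ± 0.41, SE, adjusted p = 0.0288, and 0.0908 with quantile normalization again), with heads at 7.84 in lol and 7.55 in w1118, near the bottom of the scale. When 1 array was left out, the call of FBtr0084913 held only without w1118 female body replicate 2 or lol female body replicate 3, and its adjusted p otherwise lay between 0.0609 and 0.109. For FBtr0070892 and FBtr0084913 neither head difference passed on its own (adjusted p = 0.562 and 0.867).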

How the results depend on the processing

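The rule chose 182 transcripts at a limit of 1.5 log2, 31 at 2.5 log2 and 101 after quantile normalization again (all 60 among them), and 53 to 70 with any 1 body array left out. Of the 22 calls in female bodies, 14 transcripts were called with the compared groups alone (12 of them among the 22) and 4 with the lowest 25% of transcripts dropped, which left 18 of the 60 in the test; leaving out 1 array gave 13 to 26. Calls in male bodies numbered 1 after that filter, 14 under array weights, and 1 to 3 without 1 array. In female heads there was 1 call with the compared groups alone, 1 with quantile normalization again, 1 without the 4 head arrays, 3 with array weights, 2 with the replicate block, and 0 to 1 without 1 array. In male heads there were 0 with the compared groups alone, 2 with median centring, 5 with array weights, 3 with the replicate block, and 1 to 3 without 1 array. For the sexes in heads, lol gave 0 to 1 without 1 array; w1118 gave 1 with quantile normalization again, 1 with the lowest 25% dropped, 1 with the replicate block, 4 with array weights, and 0 to 3 without 1 array. With the strains averaged there were 0 calls with head arrays or the compared groups alone, 2 with quantile normalization again, 2 with the replicate block, 6 with array weights, and 1 to 8 without 1 array (8 without w1118 male head replicate 3). The tissue interaction gave 2 with the compared groups alone, 1 with quantile normalization again, 0 with the lowest 25% dropped, 3 without the 4 head arrays, and 0 to 12 without 1 array. The interaction of strain and sex in heads gave 0 under every alternative run. Quantile normalization again moved the mean of the array medians to 9.53 in lol female heads, 9.52 in w1118 female heads, 8.33 in lol male bodies and 8.37 in w1118 male bodies, and leaving out the 4 head arrays moved it to 9.13 in w1118 male heads. The causes were not tested, beyond the fewer arrays or transcripts of some fits. Calls under these alternatives are counted for the 60 alone. They were not set against the share of all transcripts called in the same fit, so they do not set the 60 apart. In the comparisons whose numbers did not pair the samples, the deviations correlated between -0.594 and 0.670, and in all 6 comparisons 22 of 36 arrays correlated best with their own number; the block changed no call of a named transcript there. In the comparisons rerun for a named transcript, none reversed direction. Transcripts named for their sex difference in bodies or for their profile were not rerun, nor were other comparisons of the rest. Values near either end of the scale limit what the arrays can show: 55 of the 60 were in the lowest 25% of transcripts in lol male bodies, and a pair stood at the top in females.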
